A study of Homo sapiens with 4 samples.

Results

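The regions described here are sites of OGA occupancy in exons of human embryonic stem cells. OGA is the O-GlcNAcase, which strips the sugar O-GlcNAc from nuclear and cytosolic proteins. Of 8977 distinct regions listed for control cells, 468 carried an exon annotation (5.21%, Wilson 95% interval 4.77 to 5.69). They were chosen by that annotation alone, with no use of signal or of the knockdown. The cells were H9, an established human embryonic stem cell line, held in the naive state on mouse embryonic fibroblast feeders in PXGL, that is N2B27 medium with PD0325901, XAV939, Gö 6983 and human LIF. The groups were OGA knockdown cells, named shOGA in the sample titles, and control cells of genotype WT, with no further treatment in either, and each had 2 CUT&Tag libraries with an OGA antibody. CUT&Tag tethers a transposase to the antibody, so that DNA near the bound protein is cut and tagged. The labels give no hairpin sequence and no control hairpin, and they do not state that replicates were separate cultures. Neither list measures OGA RNA or protein, so the depth of the knockdown was not checked here.

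The authors deposited 1 list per group, with regions merged over both replicates. The 468 exon regions each named at least 1 peak of each control replicate. The lists hold positions and annotation but no count, signal or score, so the depth is unknown and no region has a value per library. For that reason the lists are compared by position, with no test between conditions. Wilson intervals cover counting error only, and regions of a list are not replicates.

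O-GlcNAc is placed on serines and threonines by the transferase OGT and taken off by OGA. The sugar is found on transcription factors, on chromatin regulators and on RNA polymerase II, and its level follows nutrient supply through the hexosamine pathway. Exons are the parts of a gene that remain in the spliced RNA, and most internal exons are far shorter than a CUT&Tag region. ChIPseeker, which the submitters' processing notes name, by default gives promoters and untranslated regions precedence over exons, and exons precedence over introns. An exon label therefore means that a region touched an exon outside those classes, not that it was bounded by that exon. The labels do not say whether those defaults were kept.

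Sequence could be shown for the few exon regions that hold a start window of the RefSeq promoter table (GRCh38.p14), since no genome sequence was used here. Of the 468 exon regions, 8 held a whole window (1.71%), against 5 of 2027 intron regions (0.247%) and 1798 of all 8977 control regions (20.03%). In promoter regions the share was 41.9%. In 5 of the 8 the window belonged to a gene other than the exon's host, and in 3 to the host itself. The windows below are printed because they show what an exon label can cover: the first 3 lie in regions that a knockdown region also overlapped, and the last lies in the kinase gene PIK3CD. Each is the 250 bases before the annotated start, 5′ to 3′ on the strand of the named gene, with CpG dinucleotides in capitals.
SYT3, minus strand, chr19:50658106-50658355: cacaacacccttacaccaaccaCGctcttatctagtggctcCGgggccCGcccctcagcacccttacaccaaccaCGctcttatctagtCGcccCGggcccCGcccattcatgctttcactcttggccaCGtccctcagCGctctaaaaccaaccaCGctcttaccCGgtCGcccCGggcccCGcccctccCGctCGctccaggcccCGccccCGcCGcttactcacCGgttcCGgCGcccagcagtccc
LOC124904670, minus strand, chr19:21569257-21569506: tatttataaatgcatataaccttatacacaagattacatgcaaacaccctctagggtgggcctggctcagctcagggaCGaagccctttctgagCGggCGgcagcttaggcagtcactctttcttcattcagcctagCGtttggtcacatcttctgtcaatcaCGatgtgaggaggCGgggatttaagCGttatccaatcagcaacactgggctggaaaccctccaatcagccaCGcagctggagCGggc
TMC5-AS1, minus strand, chr16:19487902-19488151: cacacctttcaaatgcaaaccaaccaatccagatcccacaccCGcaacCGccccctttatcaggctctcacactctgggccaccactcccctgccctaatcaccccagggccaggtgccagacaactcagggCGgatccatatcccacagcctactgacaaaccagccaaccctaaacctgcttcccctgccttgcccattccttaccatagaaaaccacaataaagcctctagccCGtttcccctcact
LOC124903839, minus strand, chr1:9718737-9718986: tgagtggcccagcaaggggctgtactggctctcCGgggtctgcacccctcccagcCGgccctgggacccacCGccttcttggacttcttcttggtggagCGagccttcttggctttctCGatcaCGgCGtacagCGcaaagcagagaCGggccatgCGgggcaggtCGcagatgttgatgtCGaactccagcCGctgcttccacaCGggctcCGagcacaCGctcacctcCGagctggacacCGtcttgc

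The window of SYT3, which encodes a synaptotagmin calcium sensor, lay inside the control region annotated to exon 4 of 5 of C19orf81. It held 22 CpG, more than 72.0% of the 35116 windows of the table, whose median was 11. The window of LOC124904670 lay in the region of exon 3 of 4 of LOC101929007 and held 9 CpG. That of TMC5-AS1 lay in the region of exon 15 of 21 of TMC5, which encodes a transmembrane channel-like protein, and held 4 CpG. The last window, of LOC124903839, lay in the region of exon 9 of 25 of PIK3CD, a catalytic subunit of phosphoinositide 3-kinase, and held 18 CpG. These counts lay between the lower and upper quartiles of all windows, 3 and 23 CpG. The knockdown region covered 250 of 250 bases of both the LOC124904670 and the TMC5-AS1 window and 204 of 250 of the SYT3 window.

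Short motifs were searched as exact letters on both strands of the 8 windows inside exon regions. GGGCGG, the core of a GC box, was in 4 of 8, beside 42.6% of all windows, and CCAAT, the CCAAT box, was in 3 of 8, beside 32.0%. TATAAA was in 1 of 8, that of LOC124904670, beside 10.7%, and CACGTG was in 0 of 8, beside 6.34%. GGGCGG was present in the windows of SYT3, LOC124904670 and TMC5-AS1, and none of the motifs was in that of LOC124903839. A match is a description of letters and not a binding site. The remaining windows belonged to LINC00393, LOC105370953, LOC105376289 and LOC124902699, the last inside the region of exon 15 of 19 of CPT1A, the carnitine palmitoyltransferase of fatty acid import into mitochondria.

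The exon regions lay in 431 genes. Of these hosts 399 held 1 exon region, 29 held 2 and 3 held more. The hosts matched a current or older RefSeq symbol in 414 cases, and these comprised 318 protein-coding genes, 85 long noncoding RNA genes, 9 transcribed pseudogenes, 1 further pseudogene and 1 miscellaneous RNA gene. The other 17 did not match. By transcript record, 326 regions were assigned to an exon of a coding transcript, 141 to one of a noncoding transcript and 1 to a pseudogene record. The coding transcripts had a median of 17 exons and the noncoding ones a median of 4.

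Most exon regions were annotated to internal exons. An internal exon was named in 400 regions (85.5%), a last exon in 63, a first exon in 3 and the only exon of a transcript in 2. Promoter regions, and 72 regions in 5′ UTRs and 268 in 3′ UTRs, were labelled apart from the exon class. These shares therefore depend on the order of labels and do not show where OGA lay along genes. With the exon number divided by the number of exons, 41 regions fell at or below 0.25, 98 above that and up to 0.5, 151 up to 0.75 and 178 beyond. This ratio is high by construction in short transcripts, where exon 2 of 2 scores 1, and 94 of the 468 regions lay in transcripts of 1 to 4 exons, so no shift along the gene is read from it. In the submitters' annotation, regions within 3 kb of a start are called promoter regions whichever exon they touch. The distance it gives to the nearest start was 10777 bp at the median, with an interquartile range of 5904 to 22049 bp. ATG9B, an autophagy membrane protein gene, had the exon region closest to an annotated start, at 3038 bp, while the farthest promoter region lay at 2999 bp. The farthest exon region, in DYM, lay 173938 bp from such a start. These distances leave out some starts of the RefSeq table, since 8 exon regions held a whole start window of it.

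**Figure D1:**
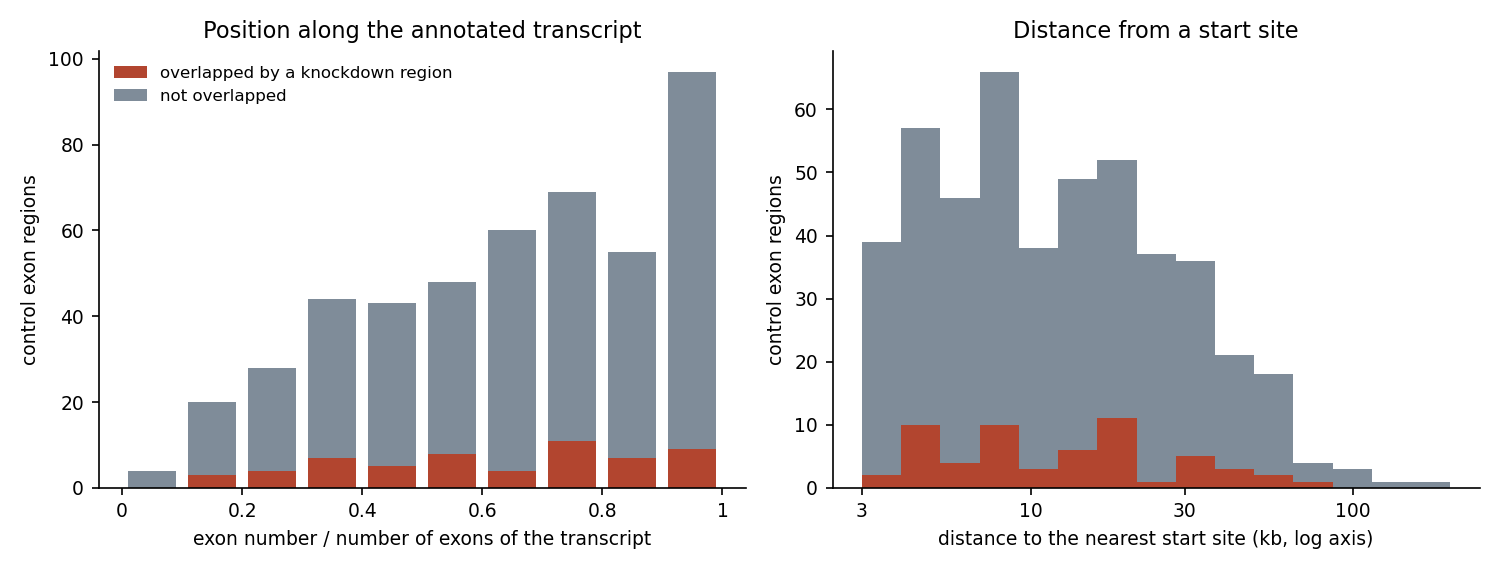
Number of control exon regions by exon number divided by the exon total of the annotated transcript (left, in steps of 0.1). Right, the same by distance to the nearest start site of the submitters' annotation, in kb on a log axis. Red parts are regions overlapped by a knockdown region, grey parts are the others, and 97 of 468 regions fall above 0.9.

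The gene that holds the exon was often not the gene with the nearest start. Both were the same in 268 of 468 exon regions (57.3%, 52.7 to 61.7), against 1255 of 2027 intron regions (61.9%, 59.8 to 64.0). An example is CD44, the hyaluronan receptor, whose exon 15 of 18 held a region for which the small nucleolar RNA gene SNORD164 had the nearest start. In 123 exon regions the nearest start lay downstream of the region, and in 345 upstream of it. A host with an exon region also had a control promoter region in 121 of 468 cases (25.9%, 22.1 to 30.01), against 627 of 2027 for intron regions (30.9%, 29.0 to 33.0). The other 347 exon regions lay in hosts with no promoter region in the control list. In 108 cases the host of an exon region also held an intron region.

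Exon regions were about as wide as other OGA regions. Their median width was 1643 bp (95% interval of the median 1557 to 1712, interquartile range 1313 to 2099), against 1575 bp in all other classes together (1241 to 2057) and 1555 bp in introns. The narrowest was 552 bp, in JAK3, and the widest 7100 bp, in MAN1C1. Together they covered 837 kb. A single peak of each replicate made up 442 of the 468 (94.4%), beside 94.6% of all other control regions, and no exon region joined more than 2 peaks of a replicate.

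**Figure D2:**
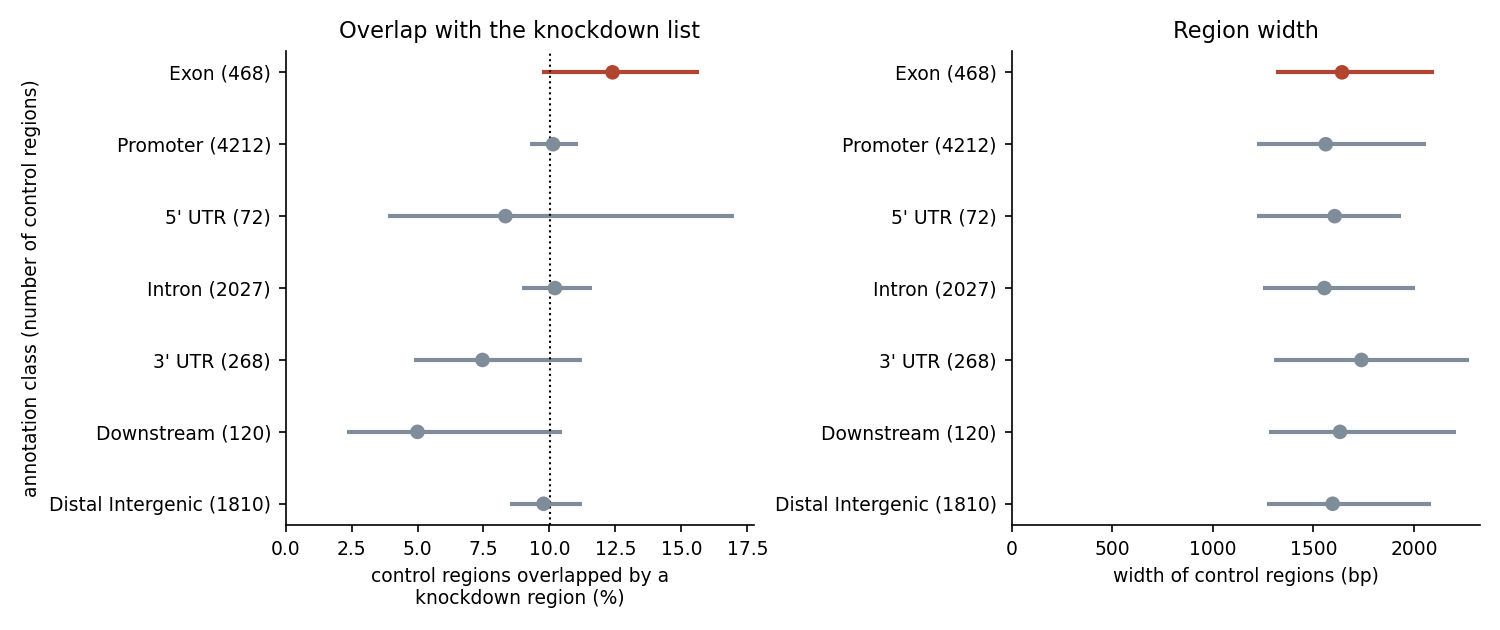
Left, percentage of control regions overlapped by a knockdown region in each annotation class, with Wilson 95% intervals and a dotted line at the 10.0% of all control regions. Right, median width with its interquartile range in bp. Exon regions are red, with 12.4% overlapped and a median of 1643 bp.

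Chromosome 19, which is rich in genes, had the highest exon share of all chromosomes. It held 59 exon regions, or 9.92% of its 595 control regions (7.77 to 12.6), against 4.88% of control regions on all other chromosomes (4.44 to 5.36). Chromosome 1 had 61 exon regions among 973 control regions (6.27%). At the low end were chromosome 8, with 1 of 121, chromosome 10, with 4 of 164, and the X chromosome, with 7 of 240. No value of gene or exon density was computed here, so its part in these shares was not tested.

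**Figure D3:**
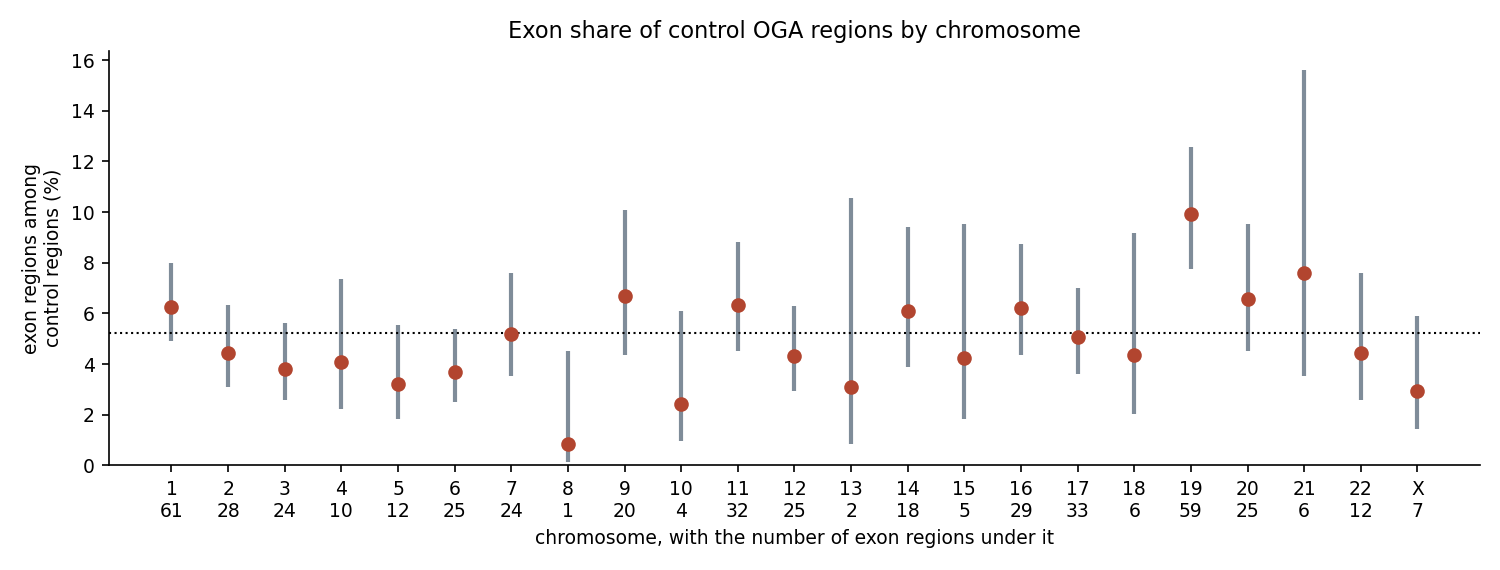
Percentage of the control regions of each chromosome that lay in exons, with Wilson 95% intervals in grey and the number of exon regions under each chromosome name. The dotted line marks 5.21%, the share over all control regions, and chromosome 19 lies highest at 9.92%.

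Only 3 hosts carried more than 2 exon regions. LTBP4, which encodes a matrix protein that binds latent TGF-beta, held 5 on chromosome 19, annotated to exons 6, 11, 13, 22 and 28 of 33. Their widths in that order were 765, 729, 1034, 1027 and 1272 bp, all below the median of exon regions, and none was overlapped by a knockdown region. PTPRU, a receptor-type tyrosine phosphatase gene, held 3 on chromosome 1, in exons 11, 12 and 29 of 30, with widths of 2073, 1746 and 1150 bp. Only that of exon 29 was overlapped, by a knockdown region of 724 bp. TBCD, a tubulin folding cofactor gene, held 3 on chromosome 17, in exons 3, 5 and 11 of 38, of 1353, 2706 and 1496 bp, with no overlap.

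MTOR, MAN1C1 and the noncoding FLJ37453 are the hosts of 2 exon regions that come first by position. MTOR, the nutrient-sensing kinase, had regions in exon 7 (1323 bp) and exon 22 (1572 bp) of 55, and the knockdown list overlapped that of exon 7 with 674 bp. MAN1C1, a Golgi mannosidase that trims N-glycans, had the widest exon region of all, at chr1:25771002-25778101 in exon 8 of 12, without overlap. Its second region, in exon 10, measured 2029 bp and held a knockdown region of 1219 bp. FLJ37453 had both of its regions in exon 2 of 2, of 1461 and 2300 bp, without overlap. Exon regions of PTPRU, MTOR and MAN1C1 thus differed within the gene in whether the knockdown list held a counterpart. The same held for CCDC88C and LMTK3, while COLGALT1 and MARS1 had both regions overlapped. The rest of the 32 hosts with more than 1 exon region had none overlapped.

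The share of exon regions in each list was similar. Exons held 63 of 1334 knockdown regions (4.72%, 3.71 to 5.997) and 468 of 8977 control regions (5.21%, 4.77 to 5.69). Introns, by comparison, held 33.6% of knockdown and 22.6% of control regions. The median width of exon regions was 740 bp in the knockdown list and 1643 bp in the control list. Knockdown regions had the smaller median in every annotation class, and over all regions the medians were 727 and 1577 bp.

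Of the 468 control exon regions 58 were overlapped by a knockdown region by at least 1 bp (12.4%, 9.71 to 15.7). The background over all control regions was 10.0%, and over those outside exons 9.91% (9.29 to 10.6), so the intervals overlapped and the share lay near the background. It was 10.2% in introns (8.97 to 11.6) and 10.1% in promoters (9.26 to 11.1). Chromosome 19 supplied 14 of the 58. There 14 of 59 exon regions were overlapped (23.7%, 14.7 to 36.0), against 59 of 536 other control regions (11.01%, 8.63 to 13.9). Without chromosome 19 the share was 44 of 409 exon regions (10.8%, 8.11 to 14.1), beside 9.88% of all control regions there. Among the 1334 widest control regions the order turned, with 8 of 73 exon regions overlapped (10.96%) beside 16.5% of all.

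Within the exon set the overlap varied little by position or distance. It was 52 of 400 in internal exons (95% interval 10.1 to 16.7%) and 7.94% in last exons (5 of 63, 3.44 to 17.3). By distance to a start it was 12.6% up to 5 kb, 12.1% from 5 to 10 kb, 12.99% from 10 to 25 kb and 11.6% beyond. Coding transcripts had 44 of 326 (13.5%, 10.2 to 17.6) and noncoding transcripts 14 of 141 (9.93%, 6.01 to 15.98). Transcripts of 11 to 20 exons had the highest share of the exon-number classes, 25 of 136 (18.4%, 12.8 to 25.7), against 15 of 135 in those with more exons (11.1%, 6.85 to 17.5). Hosts with a control promoter region had 12 of 121 and hosts without 46 of 347. Within each of these splits the intervals overlapped.

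Where a knockdown region met a control exon region, it usually sat inside it. The 58 knockdown regions had a median width of 717 bp (279 to 1868), against 1804 bp (900 to 4035) for the control exon regions they met. In 51 of 58 pairs the knockdown region lay wholly within the control region. Knockdown regions were narrower at the median in every annotation class, and the share lying within was not computed outside exons. It covered a median of 42.4% of the control region, and the centres were 238 bp apart at the median and at most 862 bp. Of the 58 knockdown regions 41 were annotated to an exon and 17 to an intron of the same host. In 32 cases the same exon of the same transcript was named, and in 9 another exon of the host. The same place could thus carry an exon label in the control list and an intron label in the knockdown list.

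**Figure D4:**
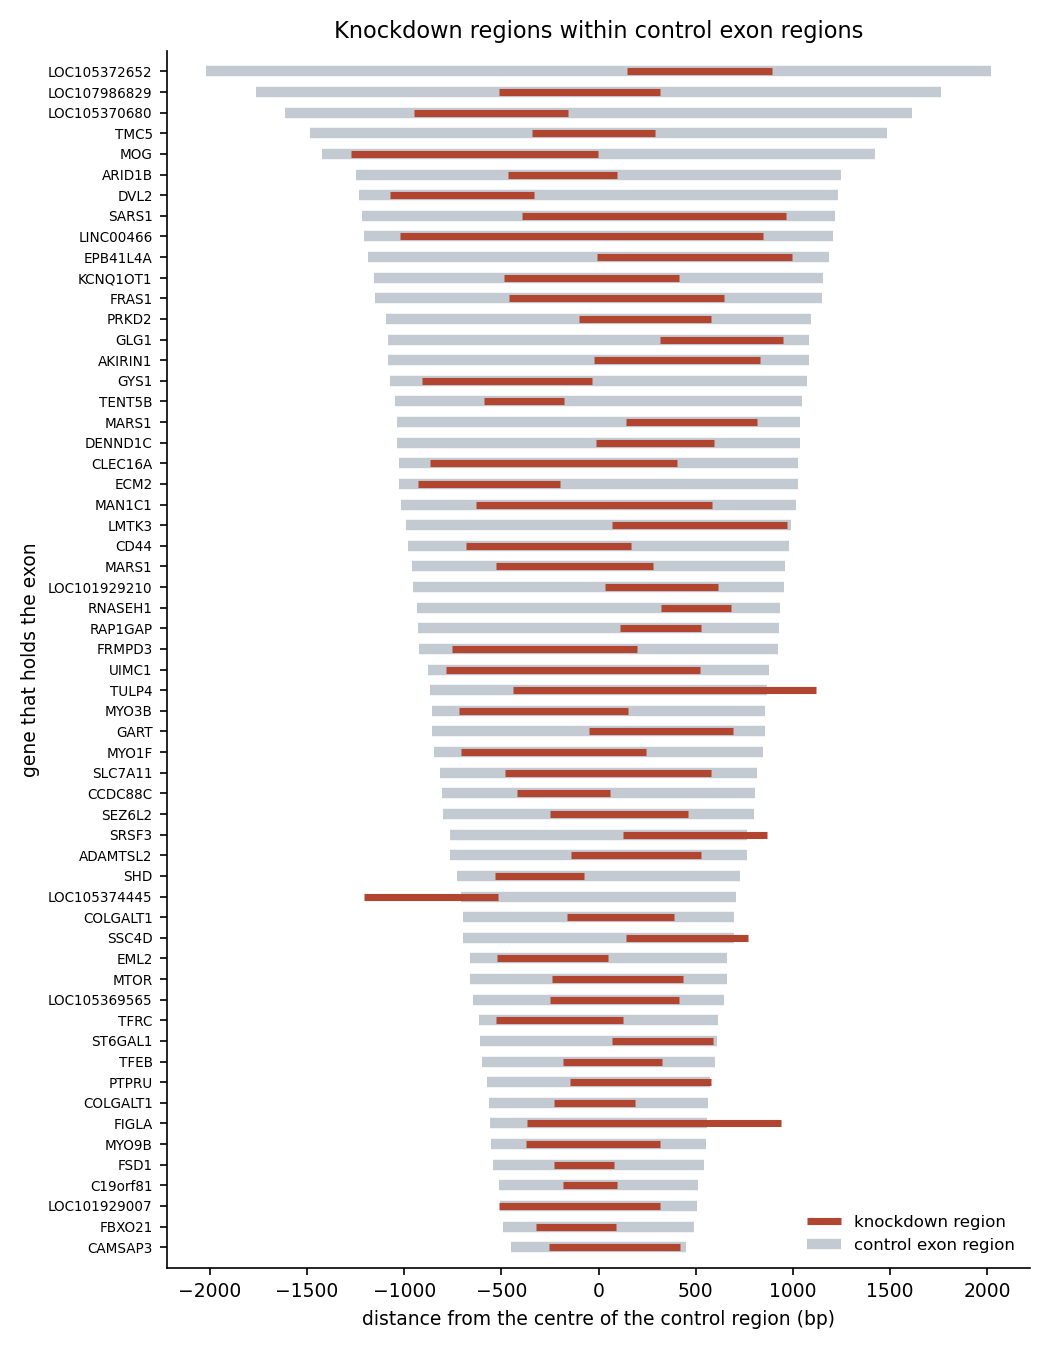
Extent of the knockdown region (red) and of the control exon region (grey) for the 58 overlapping pairs, in bp from the centre of the control region, ordered by control width and named by the gene that holds the exon. The red span lies wholly inside the grey one in 51 pairs and is the wider one in FIGLA alone.

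The 3 widest exon regions with a knockdown counterpart lay in predicted noncoding transcripts. The knockdown and control regions measured 743 and 4035 bp in exon 3 of LOC105372652 on chromosome 20, 830 and 3527 bp in LOC107986829 on chromosome 7, and 789 and 3223 bp in LOC105370680 on chromosome 14. At TMC5, the site of the TMC5-AS1 window above, they measured 634 and 2974 bp. In exon 3 of 8 of MOG, the myelin oligodendrocyte glycoprotein gene, they measured 1274 and 2844 bp. ARID1B, a subunit of BAF chromatin remodellers, had 563 and 2498 bp around exon 13 of 21. DVL2, a Dishevelled protein of WNT signalling, had 741 and 2470 bp, with exon 10 named in the knockdown list and exon 4 in the control list. SARS1, the cytosolic seryl-tRNA synthetase gene, had 1359 and 2434 bp in exon 4 of 12.

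LINC00466, a long noncoding RNA gene on chromosome 1, had the widest knockdown region of all 58, 1868 bp in a control region of 2410 bp. EPB41L4A, a band 4.1 family gene, completes the 10 with 1005 and 2372 bp at its last exon. At the other end of coverage was LOC105374445, where 191 bp were shared (13.5% of the control region). FIGLA, which encodes an oocyte transcription factor, had the highest coverage, 83.0%, in exon 3 of 5. Its knockdown region of 1308 bp exceeded the control region of 1121 bp.

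The widest exon regions without a knockdown counterpart lay in genes of varied function. After MAN1C1 came LINC01716 (4396 bp), IL6R, the interleukin-6 receptor gene (4226 bp in exon 3 of 7), and TTLL11, a tubulin polyglutamylase gene (4139 bp). ABCC2, an organic anion exporter gene, had 3994 bp at exon 30 of 31 and PXMP4, a peroxisomal membrane protein gene, 3924 bp. LOC105376289 (3862 bp), LOC105375574 (3815 bp), LIMCH1 (3753 bp) and the cytidine deaminase gene CDA (3679 bp) followed. Of exon regions over 3000 bp there were 24, and 3 of these had a knockdown overlap. By width, 13 of the 117 narrowest and 16 of the 117 widest exon regions were overlapped (11.1% and 13.7%).

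Seen from the knockdown list, 45 of its 63 exon regions overlapped a control region (71.4%, 59.3 to 81.1), against 69.0% of all knockdown regions. Of these, 41 met a control exon region, 2 a promoter region and 2 a 3′ UTR region. The other 18 had a median width of 866 bp and lay 18274 bp from a start at the median, against 733 bp and 10355 bp for the 45. The widest of the 18 were at MED27, a Mediator subunit gene (1349 bp), PTPRG, a receptor tyrosine phosphatase gene (1326 bp), and PGM2L1, a glucose-1,6-bisphosphate synthase gene (1266 bp). SLC35B4, a nucleotide sugar transporter gene, had 1164 bp and UBE2Q2, a ubiquitin-conjugating enzyme gene, 1054 bp. Hosts with no overlapped exon region numbered 375, and 39 of them were named elsewhere in the knockdown list. Such a gene could be the host of a knockdown region or only the gene of its nearest start. The same share over all genes of the control list was not computed, so nothing is read from this count.

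Genes of pluripotency, O-GlcNAc and related pathways were followed in 12 lists, which held 409 distinct genes. Of these 201 had some control region and 11 hosted an exon region (5.47% of the 201, 3.08 to 9.53). Of those regions 3 were overlapped, beside 58 of all 468 exon regions (12.4%) and 10.0% of all control regions. Among all RefSeq protein-coding genes with some control region, 317 of 4632 hosted an exon region (6.84%, 6.15 to 7.61), so the share in the lists lay near the background. Of 22 core pluripotency genes 17 had some control region and 0 hosted an exon region. Of 32 naive pluripotency genes 18 had some control region and 1 was a host. This was DNMT3L, a cofactor of DNA methylation in germ cells, with 1936 bp in exon 7 of 12 and no overlap. The lists of glycolysis, cell cycle and replication, ERK, WNT, PKC and LIF signalling, and fibroblast markers of the feeder layer had 0 hosts each. Of their genes 12, 18, 23 and 1, in that order, had some control region. OGA and OGT hosted none. GFPT2, an isoform of the rate-limiting enzyme of the hexosamine pathway, was the 1 host among 15 genes of that pathway, with 1035 bp in exon 11 of 19.

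Chromatin genes contributed a few exon regions. Host counts here stand beside 317 of 4632 protein-coding genes with some control region (6.84%). Of 74 histone modifier and remodeller genes 38 had some control region and 3 were hosts. BPTF, the large subunit of NURF, had 2856 bp in exon 29 of 30, and ARID1B had the overlapped region above. KDM4A, a histone demethylase gene, had 2072 bp in exon 4 of 22. Of 39 DNA methylation, TET and polycomb genes 22 had some control region and 1 was a host. This was KDM2B, which recruits polycomb complexes to CpG islands, with 1450 bp in exon 8 of 25. TEAD1, the Hippo pathway transcription factor, was the host among 28 trophectoderm and Hippo genes (942 bp), of which 9 had some control region. Of 46 splicing genes 29 had some control region and 2 were hosts. HNRNPA2B1 had 1886 bp in exon 8 of 11 without overlap. SRSF3, a splicing factor gene, had a knockdown region of 740 bp on a control region of 1532 bp in exon 3 of 6.

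Of 28 imprinted genes 10 had some control region, and 2 noncoding RNA genes were hosts. KCNQ1OT1, the antisense RNA that silences its neighbours on the paternal chromosome, had a knockdown region of 905 bp inside a control region of 2307 bp in its only exon, which lies within KCNQ1 on the opposite strand. MEG3, expressed from the maternal chromosome, had 2155 bp in exon 6 of 9 without overlap. These lists give counts only, since earlier results of these data were known when they were made.

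Of 5 gene families followed by name, solute carrier genes had most hosts. Of their 398 protein-coding members 101 had some control region, and 16 of these 101 were hosts. Among all protein-coding genes with some control region, 317 of 4632 were hosts (6.84%). The 16 solute carrier hosts held 17 exon regions, since SLCO2B1, an organic anion transporter gene, held 2 (2114 and 1275 bp). The widest were at SLC5A10 (2714 bp), SLC17A7, the vesicular glutamate transporter gene (2443 bp), SLC22A11 (2283 bp) and SLC13A3 (2225 bp). SLC7A11 and SLC3A2, which encode both chains of the cystine-glutamate exchanger, were hosts too. SLC7A11 had a knockdown region of 1059 bp in a control region of 1636 bp in exon 4 of 12, the only overlapped one of the 17. Overlap counts of the families stand beside 58 of all 468 exon regions (12.4%) and 10.0% of all control regions. SLC3A2 had 2093 bp in exon 3 of 12 without overlap. Of 517 ZNF genes 115 had some control region and 2 were hosts, ZNF532 and ZNF341, with 0 overlapped. Of 44 collagen genes 4 had some control region, and COL23A1 and COL9A3 were hosts, with 3 regions and 0 overlapped. Keratin genes had 0 hosts of 55 and protocadherin genes 0 of 66, but only 1 and 4 of these genes had any control region.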

How the data were processed

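The 2 control and 2 OGA knockdown CUT&Tag libraries were grouped by their titles. Among tools, ChIPseeker 1.12.1, SEACR 1.3 and Bowtie2 2.3.4.3, besides edgeR and DESeq2, appear in the submitters' processing notes, which do not say how each was used. The build listed there is GRCh38.p13. The authors deposited 1 annotated region list per group, and per the file headers its numbers are widths and distances in base pairs. How peaks were called and merged is, with the depth, not given in these sources.

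The repeated line of the control list was counted as a single region. A region counted as overlapped when it shared 1 bp or more with a region of the other list. Host gene, exon number and exon total were read from the annotation, and both steps, tested on simulated data, recovered 300 of 300 planted overlaps in 8977 regions and read 8977 of 8977 annotations. Start windows came from a RefSeq table of GRCh38.p14, whose primary chromosomes have the coordinates of GRCh38.p13. Members and lists were chosen with earlier results of these data known. Named genes were the 10 widest exon regions with and the 10 widest without overlap, the 6 hosts with most regions (ties by position), the 5 widest knockdown exon regions without overlap and up to 4 per list. JAK3, ATG9B, DYM, CD44, LOC105374445, FIGLA, SLC7A11, SLC3A2, SLCO2B1, the start windows, the functional groups and other genes of the closing section were picked with their values in view. Alternatives were other overlap rules, widths, distances, promoter limits, peak numbers and gene assignment, primary chromosomes only, and first exons left out. Shares carry Wilson 95% intervals. Scripts ran under Python 3.11.15 with pandas 2.3.3, numpy 2.4.6 and scipy 1.17.1, and plots were drawn with matplotlib 3.10.9.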

Additional observations from a re-analysis of the deposited data

How the results depend on the processing

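Of 18 alternatives, 16 left the value within its 95% interval, or the number of regions close to 468. Among the 16, those limited to the primary chromosomes kept all 468 exon regions, so their values could not change and show nothing about robustness. Promoters within 1 kb lowered the share of exon regions whose host had a control promoter region to 19.7%, against 25.9%, and regions more than 10 kb from a start lowered the share with the same host and nearest gene to 51.8%, against 57.3%. The cause was not tested. The overlapped share of exon regions ran from 10.5% with centres within 500 bp to 14.9% for regions of the control median width or more. Over all control regions the share was 7.75% with centres within 500 bp and 12.4% for regions of the control median width or more. When the control list was reduced to its 1334 widest regions, the exon share was 8 of 73 (10.96%), beside 16.5% of all control regions. Among settings with a share over all control regions, the exon share lay below it only there. These differences were not tested. Leaving out chromosome 19, or regions with a RefSeq start window, was chosen after seeing the data. No paired analysis was possible because each list joins its replicates, and for the same reason no replicate could be left out. The unknown depth limits what an absent knockdown region can show.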

Other observations

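Hosts were also grouped by known function after their names had been seen, so the counts below describe exon regions and test nothing. The groups were not exhaustive. TMC5 and EPB41L4A, both with an overlapped region, were in none of them, while the related EPB41L1, without overlap, was counted under cytoskeleton. A host could be counted in several groups, as MTOR, TFEB, MAN2B1, FUCA1 and EEF2K were. Each count of overlapped regions stands beside 58 of all 468 exon regions (12.4%) and 10.0% of all control regions. The largest group was cytoskeleton and motor genes, with 29 exon regions in 24 hosts, of which 5 were overlapped by a knockdown region. These 5 lay in EML2, CAMSAP3 and the myosin genes MYO3B, MYO1F and MYO9B, while the fourth myosin host, MYO15A, had none. Kinase genes had 22 regions in 19 hosts, and 3 were overlapped, in MTOR, PRKD2 and LMTK3. JAK3, TYK2, SRC and MET were hosts without overlap. Extracellular matrix genes had 20 regions in 15 hosts, with overlap at FRAS1, ECM2 and ADAMTSL2. They included LTBP2 and LTBP3 beside LTBP4, so 3 genes of latent TGF-beta binding proteins were hosts. Cell adhesion and receptor phosphatase genes had 17 regions in 13 hosts, with 2 overlapped, at CD44 and PTPRU. Ion channel, pump and neurotransmitter receptor genes had 11 regions in 11 hosts and 0 overlapped, among them GRIN1, CACNA1B and CACNA1C.

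Genes of glycan enzymes had 11 exon regions in 8 hosts, among them the lysosomal MAN2B1 and FUCA1 and the hexosamine pathway gene GFPT2. Of the 11, 4 were overlapped, at MAN1C1, at ST6GAL1, a sialyltransferase gene, and at both regions of COLGALT1, a collagen galactosyltransferase gene. The COLGALT1 pairs measured 418 and 1128 bp around exon 7 and 554 and 1394 bp around exon 10 in knockdown and control. Both knockdown regions were annotated to introns, 6 and 10. Lysosomal genes and their regulators had 9 regions in 7 hosts, with overlap at MTOR and at TFEB, a transcription factor of lysosome genes (513 and 1195 bp in knockdown and control, exon 6 of 10). Sequence-specific transcription factor genes had 8 regions in 8 hosts, with 2 overlapped, at TFEB and FIGLA. Genes for translation had 8 regions in 7 hosts and 3 were overlapped, 1 in SARS1 and 2 in MARS1, while IGF2BP2, MRPS11, EEF1G, EEF2K and UPF2 had none. In MARS1, the cytosolic methionyl-tRNA synthetase gene, the pairs measured 674 and 2074 bp in exon 8 and 806 and 1921 bp in exon 11 in knockdown and control. TFRC, the transferrin receptor gene, had 654 and 1231 bp in exon 15 of 20, and CD44 had 848 and 1960 bp.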
